A study of Mus musculus with 28 samples.

Results

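The RNA of tumors given 5-fluorouracil (5-FU) together with immune checkpoint blockade (ICB) was compared with that of tumors given ICB alone. They were the 5 tumors titled 5-FU+ICB and the 5 titled ICB. These 10 tumors were chosen by their titles alone, from 28 tumors in the series and 19 in the count matrix of the 5-FU groups. Every tumor was grown under the skin of a different BALB/c.AusBP mouse from AB1-HA cells, a mouse mesothelioma line that carries the influenza hemagglutinin antigen, and the study's methods give female mice of 8 to 10 weeks. The mice of both groups received 100 µg of anti-CTLA-4 and 100 µg of anti-PD-L1 on the first day of treatment and 2 further doses of anti-PD-L1, so the antibodies are shared and only 5-FU differs. 5-FU was injected once into a vein at 75 mg/kg on the day ICB began, and whole tumors were taken at day 7. The other groups of the matrix, 4 PBS tumors and 5 tumors given 5-FU without ICB, served to estimate the spread between tumors and are used below for the same drug in the absence of ICB. A subcutaneous tumor of 1 cell line in 1 strain is a limited model of pleural mesothelioma, and the RNA came from tumor, immune and stromal cells together. In such bulk RNA, fewer cells of a type and less RNA per cell cannot be told apart.

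5-FU is a pyrimidine analog that inhibits thymidylate synthase and is built into RNA and DNA. Antibodies to CTLA-4 and PD-L1 release T cells from inhibitory signals, and the T cells then kill with perforin, which opens the target cell's membrane, and granzymes, serine proteases that enter through it. Growing tumors also outpace their blood supply. When oxygen falls, the hydroxylases that mark the alpha subunits of hypoxia-inducible factor (HIF) for destruction stop working, and HIF binds DNA at a short core motif and turns on glycolytic enzymes, glucose transporters, carbonic anhydrase IX and regulators of mitochondria. T cells and activated macrophages use much of the same glycolytic machinery, so the RNA of a whole tumor does not say which cell holds it.

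The 10 tumors had between 25636834 and 33950805 counts each, and 3 counts, taken as the floor, corresponded to 0.0884 to 0.152 CPM, the count scaled to a common library size with TMM factors. The mesothelin gene Msln, a mesothelial marker, stood at 123, 53.6, 56.6, 214 and 92.7 CPM in ICB replicates 1 to 5 and at 33.7, 159, 67.3, 55.4 and 0.506 in 5-FU+ICB replicates 1 to 5, so that 5-FU+ICB replicate 5 had hardly any. The second mesothelial marker Wt1 was low in all 10, at 0.391 to 1.97 CPM in ICB and 0.708 to 2.89 in 5-FU+ICB tumors. The 7 tested genes of the mesothelial list, nearly all of whose RNA was the broadly expressed Vim, summed to 3443, 2979, 4178, 4314 and 4133 CPM in ICB and 4470.4, 5213, 3772, 3613 and 2819 in 5-FU+ICB tumors, so replicate 5 was the lowest of the 10 by a smaller margin than for Msln, and 6 of the 7 had positive log2 fold changes (median 0.64, or 0.38 without replicate 2). Replicates 5 and 2 of the 5-FU+ICB group stood apart. They had a mean correlation of 0.896 and 0.905 with the other tumors of their group over log2 CPM, against 0.947 to 0.970 for the other 8 tumors. Ptprc, the pan-leukocyte gene CD45, which was chosen after its values were seen, was at 456, 100.1, 339.8, 388 and 731 CPM in 5-FU+ICB tumors and 242 to 436 in ICB tumors. Replicate 5 was thus the highest of the 10 and replicate 2 the lowest. Many of the results below are therefore also given without one of these tumors.

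With edgeR's quasi-likelihood test, 41 of 17894 genes tested were differentially expressed genes (DEGs), which is 0.229%. Genes were called DEGs when p, adjusted by Benjamini-Hochberg over every gene tested, was under 0.05 and the log2 fold change was beyond 0.5 in either direction. All adjusted p-values below come from this test. Of the 41, 29 fell (0.162% of genes tested) and 12 rose (0.0671%) when 5-FU was added to ICB. The median log2 fold change of all genes was 0.02 and 53.2% had a positive one. In 40 of the 41 DEGs the 5 tumors of one group all lay outside the range of the other, against 421 of all genes tested (2.35%). The exception was Gpr137b-ps. Besides the DEGs, 1946 genes (10.9%, DEGs included) had an unadjusted p-value under 0.05, with 1098 of them on the higher side (6.14%) and 848 on the lower side (4.74%) for 5-FU+ICB. The number of DEGs hung on single tumors. It was 3 without 5-FU+ICB replicate 1, 20 without replicate 3 and 84 without replicate 4, and it was 25, 15, 1 and 10 without ICB replicates 1, 2, 4 and 5. Without 5-FU+ICB replicate 5 it was 37 (0.207%), with 8.46% of genes at an unadjusted p under 0.05 (4.13% higher and 4.33% lower). Without replicate 2 it was 40 (0.224%), with 14.2% of genes at that p (8.66% higher and 5.49% lower). When the PBS and 5-FU tumors were left out of the model, edgeR called 0 DEGs at a smallest adjusted p of 0.0742, with 1513 genes at an unadjusted p under 0.05, whereas DESeq2 on all 4 groups called 328 (1.69% of the genes it tested), among them all 41. None of the 41 fold changes turned sign in any of these fits. The gene called in all 10 fits that left out a tumor was Gm48065, a long intergenic non-coding RNA on chromosome 10 (GRCm38 chr10:44597889-44602174, minus strand). It stood at 4.26, 3.92, 3.77, 2.92 and 3.70 CPM in ICB tumors and 0.802, 0.68, 0.765, 1.19 and 0.809 in 5-FU+ICB tumors, a log2 fold change of -2.12 ± 0.22 (SE) with an adjusted p of 3.05e-04.

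**Figure D1:**
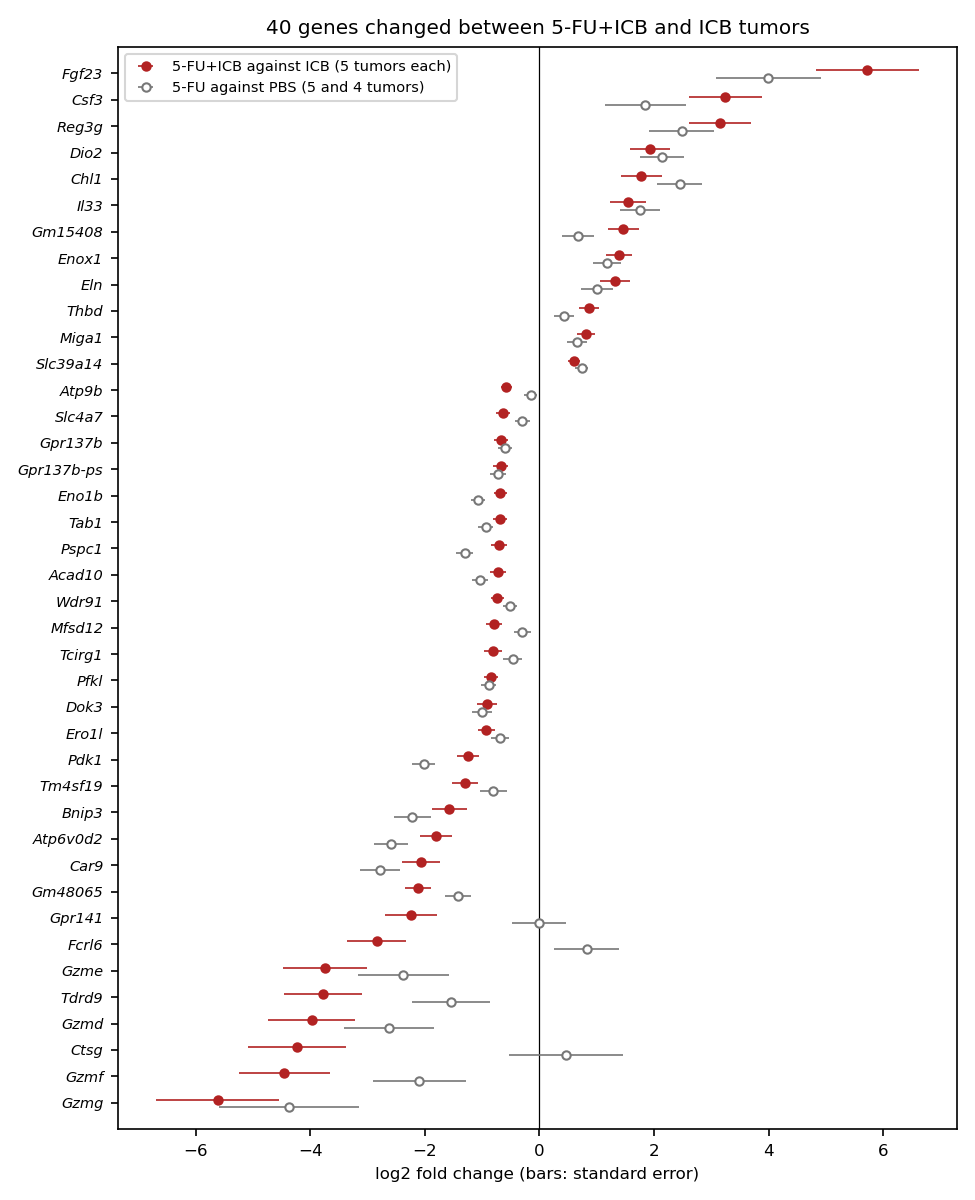
Log2 fold changes with standard errors of 40 of the 41 DEGs, ordered from the most positive at the top. Red points compare 5-FU+ICB with ICB tumors and grey open points 5-FU with PBS tumors, which are other animals. Gm44040 is left out because its 5-FU+ICB tumors were all under the floor. The red points run from -5.62 for Gzmg to 5.72 for Fgf23, and most grey points lie on the same side of 0.

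A part of the targets of HIF-1 was lower in tumors given 5-FU with ICB. Of 25 HIF-1 target genes outside glycolysis, 4 fell as DEGs (Car9, Pdk1, Bnip3 and Ero1l), against 0.162% of all genes, 0 rose, and 12 in all were lower at an unadjusted p under 0.05, against 4.74% of all genes tested. The median log2 fold change of the list was -0.38, beside 0.02 over all genes. Without 5-FU+ICB replicate 5 it was -0.46, with 14 members lower at that p (4.33% of all genes), and without replicate 2 it was -0.36, with 13 (5.49%).

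Car9 encodes carbonic anhydrase IX, which moves acid out of hypoxic cells and is a standard marker of hypoxia. It was at 10.9, 16.4, 11.9, 17.0 and 7.52 CPM in ICB tumors and at 3.06, 1.27, 2.94, 4.27 and 3.69 in 5-FU+ICB tumors. The highest 5-FU+ICB tumor lay below the lowest ICB tumor, and the log2 fold change was -2.06 ± 0.33 with an adjusted p of 0.0161. Pdk1, the kinase that shuts pyruvate dehydrogenase and so keeps pyruvate out of the mitochondrion, was at 56.1, 52.2, 42.0, 64.2 and 46.2 CPM with ICB and 21.6, 15.0, 19.4, 28.3 and 25.6 with 5-FU+ICB. Every 5-FU+ICB tumor was well under every ICB tumor (log2 fold change -1.25 ± 0.19, adjusted p 0.0161). For Bnip3, a mitophagy receptor, ICB tumors had 116, 129, 89.2, 123 and 103 CPM and 5-FU+ICB tumors 40.3, 19.8, 33.7, 62.3 and 32.4. These groups did not overlap either (log2 fold change -1.57 ± 0.31, adjusted p 0.0415), but Bnip3 was a DEG in 2 of the 10 fits that left out a tumor, while Car9, Pdk1 and Ero1l were in 8 each. Ero1l encodes the oxidase that drives disulfide formation in the endoplasmic reticulum. It fell from 139.7, 191, 108, 174 and 149 CPM to 76.8, 76.3, 72.8, 104 and 69.5 CPM, a log2 fold change of -0.93 ± 0.15 with an adjusted p of 0.0161, and 5-FU+ICB replicate 4 came closest to the lowest ICB tumor.

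Other members did not pass the adjusted threshold. Egln3, an oxygen-sensing prolyl hydroxylase that HIF itself induces, ranged over 25.0 to 47.0 CPM in ICB tumors and 15.9 to 21.0 in 5-FU+ICB tumors without overlap (log2 fold change -0.94 ± 0.21, adjusted p 0.0692). The histone demethylase gene Kdm3a had a log2 fold change of -0.76 ± 0.17 (adjusted p 0.0692). Vegfa, the main growth factor for blood vessels, had one of -1.02 ± 0.31 (adjusted p 0.191), with ICB tumors at 32.8 to 96.9 and 5-FU+ICB tumors at 20.0 to 51.6 CPM. The subunits that sense or carry the signal did not share the pattern. Of 7 tested genes for HIF subunits and oxygen sensors, 0 were DEGs and the median log2 fold change was 0.04. Hif1a itself had a log2 fold change of -0.28 ± 0.19, at 271 to 476 CPM in ICB tumors and 193 to 378 in 5-FU+ICB tumors. HIF-1α is controlled mostly through its protein, which RNA does not show. Epas1, which encodes HIF-2α and is abundant in endothelium, had a log2 fold change of 1.01 ± 0.43 (adjusted p 0.402), which became 0.49 without 5-FU+ICB replicate 5.

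Among genes of glycolysis, 1 passed the adjusted threshold and most of the others had lower values. Of 21 genes for glucose uptake, glycolysis and lactate export, 1 fell as a DEG (Pfkl), 15 were lower and 0 higher at an unadjusted p under 0.05 (4.74% and 6.14% of all genes), and 9 had groups that did not overlap, all lower, against 1.60% of all genes tested. The median log2 fold change of the list was -0.53. It was -0.50 without 5-FU+ICB replicate 5 and -0.53 without replicate 2. Their summed level was 10537, 12024, 12187, 13143 and 12609.6 CPM in ICB replicates 1 to 5 and 8776, 7855, 8731, 8305 and 9068 in 5-FU+ICB replicates 1 to 5, and the groups did not overlap. At the entry, Slc2a1, the glucose transporter GLUT1, was at 121, 211, 110.3, 131 and 167 CPM with ICB and 97.5, 59.0, 84.4, 91.7 and 79.7 with 5-FU+ICB. The ranges were separate, yet the adjusted p was 0.0817 (log2 fold change -0.84 ± 0.19).

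Pfkl, the liver-type phosphofructokinase of the committed step, was at 157, 208, 149, 197 and 168 CPM with ICB and 111, 77.7, 94.9, 120.3 and 86.4 with 5-FU+ICB. It fell, with a log2 fold change of -0.85 ± 0.13 (adjusted p 0.0161) and was a DEG in 9 of the 10 fits that left out a tumor. Further down, aldolase C (Aldoc) had a log2 fold change of -1.56 ± 0.35 (adjusted p 0.0692) and phosphoglycerate mutase (Pgam1) of -0.60 ± 0.13 (adjusted p 0.0692), both without overlap. Ldha, which turns pyruvate into lactate, had one of -0.29 ± 0.16 (adjusted p 0.522), and 5-FU+ICB replicate 5, at 985 CPM, lay inside the ICB range of 823 to 1037. Eno1b also fell, with a log2 fold change of -0.68 ± 0.12 (adjusted p 0.0215). This is a copy of the enolase gene Eno1, and 61.8% of the 100-base windows of its transcript occur unchanged in Eno1 transcripts, so the reads of the pair cannot be fully told apart. The respiratory chain, where pyruvate would otherwise be burned, had 0 of 22 genes at an unadjusted p under 0.05 and a median log2 fold change of 0.05.

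**Figure D2:**
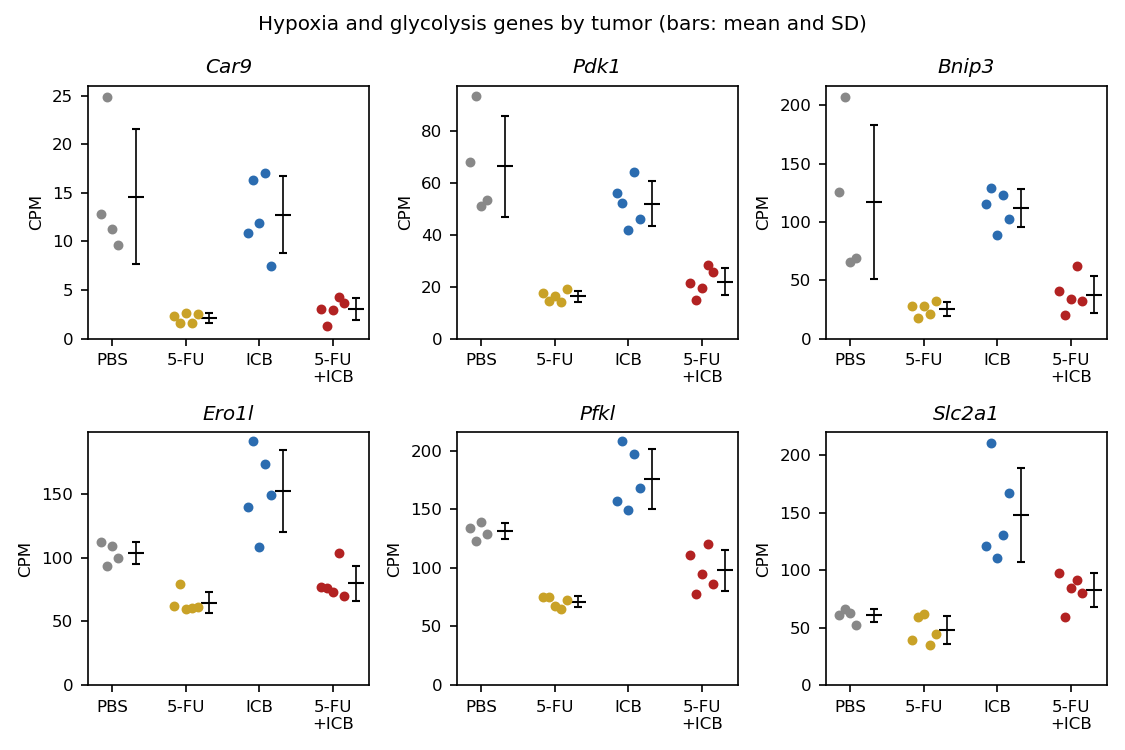
CPM of 5 HIF-1 target and glycolysis DEGs and of Slc2a1 in each tumor, by treatment (4 PBS tumors, 5 in every other group). Points are tumors and the bars beside them give the mean and SD. The 5-FU+ICB tumors lie below all ICB tumors in each panel, for Car9 at 1.27 to 4.27 against 7.52 to 17.0 CPM.

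The promoters of 3 of these DEGs are shown because they hold ACGTG, a form of the HIF core motif, in the 250 bases before the RefSeq transcription start. It reads CACGT on the other strand. The sequences are those of RefSeq on GRCm38.p6, each printed 5′ to 3′ on the strand of the gene, with ACGTG or CACGT in capitals. The windows are chr4:43506776-43507025 (+) for Car9, chr7:138909507-138909756 (-) for Bnip3 and chr14:45318573-45318822 (-) for Ero1l, which RefSeq names Ero1a.
Car9: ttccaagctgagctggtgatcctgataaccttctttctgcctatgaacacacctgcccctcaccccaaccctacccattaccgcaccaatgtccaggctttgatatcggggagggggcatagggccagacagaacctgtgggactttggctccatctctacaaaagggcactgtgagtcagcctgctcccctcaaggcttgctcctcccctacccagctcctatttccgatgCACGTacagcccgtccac
Bnip3: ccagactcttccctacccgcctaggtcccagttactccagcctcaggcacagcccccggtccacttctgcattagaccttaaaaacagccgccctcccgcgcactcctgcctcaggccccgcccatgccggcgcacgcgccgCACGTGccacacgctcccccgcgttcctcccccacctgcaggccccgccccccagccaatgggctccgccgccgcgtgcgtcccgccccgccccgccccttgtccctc
Ero1l: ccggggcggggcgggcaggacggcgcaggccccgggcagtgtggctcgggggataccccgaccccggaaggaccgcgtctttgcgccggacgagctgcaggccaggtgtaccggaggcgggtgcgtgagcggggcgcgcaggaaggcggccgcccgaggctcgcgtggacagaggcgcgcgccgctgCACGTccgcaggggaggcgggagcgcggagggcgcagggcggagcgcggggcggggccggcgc
The motif of Car9 begins 18 bases before the RefSeq start, that of Ero1l 63 bases, and that of Bnip3 108 bases. In GENCODE M21, Car9 and Ero1l begin further upstream, at chr4:43506966 and chr14:45318771. Their motifs thus lie inside the GENCODE genes. In Bnip3 the letters CACGTG hold the motif on both strands, overlapping by 4 bases. Pdk1 and Pfkl had no ACGTG or CACGT in the window of the first RefSeq start. Both of these windows hold GCGTG, another form of the core, which was not searched for in any gene. Over the HIF-1 target and glycolysis lists, 40 of 46 genes had a RefSeq promoter. Of these, 22 (55%) had ACGTG or CACGT before at least 1 of their starts, against 23.8% of 12445 tested genes with a promoter. Among the 29 genes that fell, 22 had a promoter and 4 of those (18.2%) held ACGTG or CACGT. A match of 5 letters is a description of the window and not evidence of binding.

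Among the largest falls were those of 4 granzymes and a neighbouring protease gene on chromosome 14. Gzmd, Gzme, Gzmf and Gzmg lie with Gzmb, Gzmc and Gzmn in a cluster of granzyme, mast cell protease and cathepsin G genes. In GENCODE M21 on GRCm38, Gzme is at chr14:56117626-56120625, Gzmd at chr14:56129556-56132608, Gzmg at chr14:56156582-56159579 and Gzmf at chr14:56205263-56211417, all on the minus strand. Gzmn, which was too low to be tested, lies between Gzmg and Gzmf. Of 11 tested genes of the cluster, 5 fell as DEGs, against 0.162% of all genes, and 8 were lower and 1 was higher at an unadjusted p under 0.05, against 4.74% and 6.14%, and the median log2 fold change was -1.37. Without 5-FU+ICB replicate 5 the median was -1.90. The cluster was listed with earlier results of these data known, so these counts are a description and not a test.

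Gzmf stood at 119, 332, 56.3, 111 and 232 CPM in ICB tumors and at 11.0, 5.88, 7.73, 13.6 and 0.405 in 5-FU+ICB tumors. The groups were far apart, and 5-FU+ICB replicate 5 was the lowest by a wide margin (log2 fold change -4.46 ± 0.79, adjusted p 0.0256). Gzmg was at 122, 339.8, 39.2, 108 and 224 CPM with ICB and 2.04, 2.69, 0.966, 10.9 and 0.0506 with 5-FU+ICB, where replicate 5 had 1 count. Its log2 fold change was -5.62 ± 1.07 (adjusted p 0.0367). For Gzmd, the ICB tumors had 138, 321, 53.1, 103 and 212 CPM and the 5-FU+ICB tumors 9.59, 11.3, 9.14, 21.3 and 1.01. The ranges were again far apart (log2 fold change -3.98 ± 0.76, adjusted p 0.0367). Gzme was the least abundant of the 4 in ICB tumors, at 51.6, 114, 23.5, 35.3 and 76.3 CPM with ICB and 5.29, 3.72, 3.98, 8.71 and 0.607 with 5-FU+ICB. It had a log2 fold change of -3.74 ± 0.74 (adjusted p 0.0415). Leaving out 5-FU+ICB replicate 5 gave log2 fold changes of -5.32 for Gzmg, -4.16 for Gzmf, -3.69 for Gzmd and -3.47 for Gzme, and Gzme was then no longer a DEG. Of the 10 fits that left out a tumor, Gzmf was a DEG in 5, Gzmg in 3, Gzmd in 3 and Gzme in 2. These transcripts are 86.4 to 94.9% identical to each other. They share almost no 100-base window but 7.22 to 25.2% of their 31-base windows, so a part of their reads may have been split between them by the pseudoalignment.

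Ctsg, which encodes the serine protease cathepsin G of myeloid granules and lies in the same cluster, was at 3.19, 19.5, 1.56, 2.22 and 8.0 CPM in ICB tumors and 0.547, 0.0887, 0.201, 0.803 and 0.152 in 5-FU+ICB tumors. It fell, with a log2 fold change of -4.23 ± 0.85 (adjusted p 0.0473), at a level near the floor in the latter, and it was a DEG in 2 of the 10 fits that left out a tumor. The best known granzymes did not show falls of this size. Gzmb, the caspase-cleaving granzyme of activated cytotoxic cells, was at 118, 152, 97.6, 89.9 and 98.2 CPM with ICB and 85.1, 61.3, 56.5, 85.2 and 84.5 with 5-FU+ICB. Its groups did not overlap, but the difference of -0.58 ± 0.25 on the log2 scale had an adjusted p of 0.402. Gzmc had a log2 fold change of -1.20 ± 0.36 (adjusted p 0.179), perforin (Prf1) one of -0.70 ± 0.37 (adjusted p 0.515) and Gzma one of 0.16 ± 0.40 (adjusted p 0.926). Gzmk, a granzyme of memory-like CD8+ T cells, pointed the other way at 2.07 ± 0.86 (adjusted p 0.379), which rested on 5-FU+ICB replicate 5 at 62.3 CPM and was 0.59 without it.

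**Figure D3:**
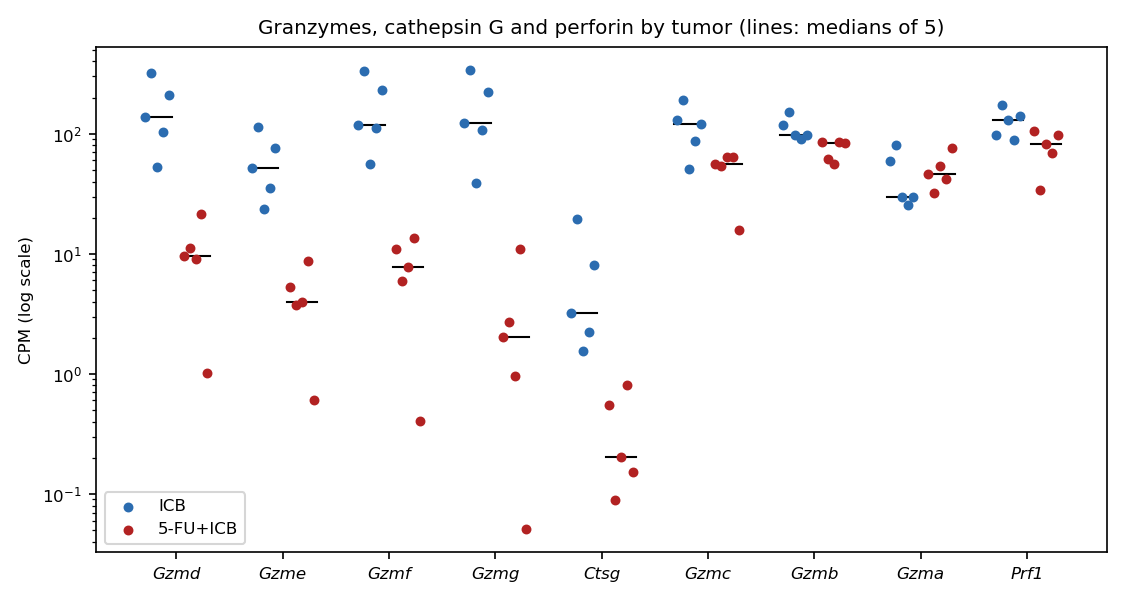
CPM on a log scale of 7 granzymes, cathepsin G and perforin in the 5 ICB and the 5 5-FU+ICB tumors, with a line at each group's median. For Gzmd, Gzme, Gzmf, Gzmg and Ctsg the groups are separate, with Gzmf at 56.3 to 332 CPM in ICB and 0.405 to 13.6 in 5-FU+ICB tumors, while those of Gzma and Prf1 overlap.

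The promoters of the 4 granzymes that fell are shown because the genes moved together and their windows are nearly the same sequence. The windows on GRCm38.p6 are chr14:56132594-56132843 (-) for Gzmd, chr14:56120626-56120875 (-) for Gzme, chr14:56211408-56211657 (-) for Gzmf and chr14:56159580-56159829 (-) for Gzmg. Capitals mark the longest stretch found unchanged in all 4, which is 36 bases long.
Gzmd: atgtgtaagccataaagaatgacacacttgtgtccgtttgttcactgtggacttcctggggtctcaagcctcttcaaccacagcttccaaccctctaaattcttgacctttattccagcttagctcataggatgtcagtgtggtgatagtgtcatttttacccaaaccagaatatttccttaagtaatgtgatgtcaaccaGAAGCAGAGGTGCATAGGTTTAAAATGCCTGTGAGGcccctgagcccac
Gzme: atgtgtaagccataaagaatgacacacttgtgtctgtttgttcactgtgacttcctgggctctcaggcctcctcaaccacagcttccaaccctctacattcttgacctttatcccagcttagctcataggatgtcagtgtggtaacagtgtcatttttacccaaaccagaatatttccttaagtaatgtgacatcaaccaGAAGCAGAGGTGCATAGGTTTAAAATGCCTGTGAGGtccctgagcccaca
Gzmf: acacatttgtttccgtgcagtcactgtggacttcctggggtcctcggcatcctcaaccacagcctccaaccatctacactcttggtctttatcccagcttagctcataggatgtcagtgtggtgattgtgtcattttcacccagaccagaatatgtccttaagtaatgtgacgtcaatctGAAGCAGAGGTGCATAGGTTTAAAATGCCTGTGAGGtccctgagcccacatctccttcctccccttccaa
Gzmg: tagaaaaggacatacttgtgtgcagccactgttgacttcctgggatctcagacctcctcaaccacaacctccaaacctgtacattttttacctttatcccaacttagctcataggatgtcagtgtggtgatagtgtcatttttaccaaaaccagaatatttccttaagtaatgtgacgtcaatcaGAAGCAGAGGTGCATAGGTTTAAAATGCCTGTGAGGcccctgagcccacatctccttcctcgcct
The shared stretch begins 49, 50, 70 and 65 bases before the RefSeq starts of Gzmd, Gzme, Gzmf and Gzmg. The aligned parts of the 4 windows are 88.2 to 95.6% identical. The window of Gzmc is 84.4 to 86.5% identical to them. None of the 4 holds ACGTG or CACGT.

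T and NK cells are the main makers of granzymes, and their markers were compared as well. All 16 genes of T cells and the T cell receptor complex had positive log2 fold changes, with a median of 0.98, but 0 of 16 had an unadjusted p under 0.05. Cd8a was at 86.1, 91.3, 183, 63.3 and 125 CPM in ICB and 219.9, 10.9, 89.6, 130.5 and 308 in 5-FU+ICB tumors. The 5-FU+ICB tumors thus held both the lowest and the highest value of the 10 (log2 fold change 0.47 ± 0.66, adjusted p 0.848). Cd3e had a log2 fold change of 0.63 ± 0.59 (adjusted p 0.751) and Cd4 of 1.16 ± 0.67 (adjusted p 0.563). The median of the T cell list without 5-FU+ICB replicate 5 was 0.39. Without replicate 2 it was 1.27, with 12 of 16 genes at an unadjusted p under 0.05, where 8.66% of all genes were higher at that p. Foxp3, the master regulator of regulatory T cells, had a log2 fold change of 1.09 ± 0.43 (adjusted p 0.35) and Pdcd1, which encodes PD-1, one of 0.70 ± 0.75 (adjusted p 0.789). Over 8 NK cell genes the median was 0.06, with 0 at an unadjusted p under 0.05, and it was -0.05 without 5-FU+ICB replicate 5 and 0.33, with 1 higher, without replicate 2.

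Of the other genes that fell by more than 4-fold, Fcrl6, which encodes an Fc receptor-like protein, was at 8.79, 20.4, 4.98, 9.56 and 16.5 CPM with ICB and 1.53, 0.887, 2.17, 3.25 and 0.506 with 5-FU+ICB. The groups were separate (log2 fold change -2.84 ± 0.52, adjusted p 0.0272). Gpr141, an orphan G protein-coupled receptor, ranged over 15.1 to 42.9 CPM in ICB and 1.48 to 8.33 in 5-FU+ICB tumors (log2 fold change -2.25 ± 0.45, adjusted p 0.0452). It was a DEG in 1 of the 10 fits that left out a tumor. Tdrd9, a helicase known from germ cells, was low throughout, with 22, 57, 12, 37 and 38 counts in ICB and 0, 3, 1, 2 and 4 counts in 5-FU+ICB tumors. Gm44040 had 16, 34, 2, 22 and 18 counts in ICB tumors and 1, 0, 0, 1 and 0 in 5-FU+ICB tumors, so no fold is given. It is annotated as an antisense gene, and whether the reads were counted by strand is not given in the sources used here.

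Atp6v0d2 encodes a subunit of the vacuolar proton pump that osteoclasts and some macrophages use, and it was at 52.5, 59.9, 152, 113 and 124 CPM with ICB and 21.4, 45.9, 25.0, 30.4 and 20.7 with 5-FU+ICB. The lowest ICB tumor stood just above the highest 5-FU+ICB tumor (log2 fold change -1.80 ± 0.28, adjusted p 0.0161). Tcirg1, the pump's osteoclast-type a3 subunit, fell with a log2 fold change of -0.81 ± 0.15 (adjusted p 0.0362), and Tm4sf19, a membrane protein of multinucleated macrophages and osteoclasts, with one of -1.30 ± 0.23 (adjusted p 0.0254). Of 14 genes of colony-stimulating factor 1 signaling and osteoclasts, 1 fell as a DEG (0.162% of all genes), 8 were lower and 1 was higher at an unadjusted p under 0.05 (4.74% and 6.14% of all genes), and the median log2 fold change was -1.29. It was -1.25 without 5-FU+ICB replicate 5 and -1.32 without replicate 2.

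Of that list, Acp5, the tartrate-resistant acid phosphatase that stains osteoclasts, was at 254, 219, 737, 773 and 551 CPM with ICB and 105, 292, 65.1, 154 and 129 with 5-FU+ICB. The 5-FU+ICB replicate 2 value lay inside the ICB range (log2 fold change -1.77 ± 0.40, adjusted p 0.0716). Ctsk, the collagen-degrading cathepsin K, had a log2 fold change of -1.94 ± 0.47 (adjusted p 0.099), and the calcitonin receptor gene Calcr and the osteoclast-associated receptor gene Oscar had -2.86 ± 0.76 (adjusted p 0.131) and -2.97 ± 0.88 (adjusted p 0.179). The ligand genes did not fall. Csf1 had a log2 fold change of 0.18 ± 0.25 (adjusted p 0.852). Tnfsf11, which encodes RANKL, had 1.30 ± 0.41 (adjusted p 0.213), with 5-FU+ICB replicate 5 at 36.9 CPM against 6.53 to 9.03 in the other 4, and 0.52 without it.

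Several macrophage genes had lower values with 5-FU+ICB without passing the adjusted threshold. Of 13 macrophage genes, 0 were DEGs, 6 were lower and 0 higher at an unadjusted p under 0.05 (4.74% and 6.14% of all genes), and the median log2 fold change was -0.38. Without 5-FU+ICB replicate 2, which had the fewest leukocyte transcripts, it was -0.14 with 3 lower, where 5.49% of all genes were. Without replicate 5 it was -0.27, also with 3 lower, where 4.33% of all genes were. Nos2, the inducible nitric oxide synthase, was at 167, 461, 230.2, 272 and 465 CPM with ICB and 106, 43.1, 82.0, 202 and 41.4 with 5-FU+ICB. 5-FU+ICB replicate 4 alone lay inside the ICB range (log2 fold change -1.75 ± 0.52, adjusted p 0.177). Csf1r, the lineage receptor, had a log2 fold change of -0.82 ± 0.36 (adjusted p 0.418). The chitinase-like gene Chil3, known from monocytes and alternatively activated macrophages, ranged over 3.10 to 35.1 CPM in ICB and 0.658 to 1.64 in 5-FU+ICB tumors (log2 fold change -3.34 ± 0.72, adjusted p 0.0664).

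Among 8 tested neutrophil genes, 0 were DEGs, 5 were lower and 1 was higher at an unadjusted p under 0.05 (4.74% and 6.14% of all genes), with a median of -1.34. Without 5-FU+ICB replicate 5 there were 3 lower (4.33% of all genes) and without replicate 2 also 3 (5.49%). S100a9, an abundant calcium-binding protein of neutrophils, was at 4.12, 14.8, 2.64, 3.07 and 4.03 CPM with ICB and 1.06, 0.68, 0.443, 0.835 and 1.32 with 5-FU+ICB. The groups were separate at low levels (log2 fold change -2.73 ± 0.75, adjusted p 0.137). Csf3r, the receptor for granulocyte colony-stimulating factor, had a log2 fold change of -1.14 ± 0.50 (adjusted p 0.41). Most of the list's summed level was Mmp9, a matrix protease that osteoclasts and macrophages also make, at 392 to 1554 CPM in ICB and 56.1 to 859.7 in 5-FU+ICB tumors (log2 fold change -1.57 ± 0.54, adjusted p 0.267). The defining neutrophil gene Ly6g was too low to be tested.

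The remaining 10 genes that fell did so by less than 2-fold. Their log2 fold changes ran from -0.91 for Dok3, an adapter that restrains signaling in myeloid and B cells, to -0.58 for the lipid flippase gene Atp9b. The lysosomal cysteine transporter gene Mfsd12 had a log2 fold change of -0.80 ± 0.14 (adjusted p 0.0254) and Wdr91, which acts on the endosome's way to the lysosome, one of -0.74 ± 0.12 (adjusted p 0.0161). The lysosomal membrane protein gene Gpr137b and its transcribed pseudogene Gpr137b-ps had -0.67 ± 0.12 and -0.68 ± 0.13 (adjusted p 0.0261 and 0.0415). In the pair, 15.0% of the 100-base windows of the pseudogene also occur in Gpr137b, so they are not fully independent. Others were Slc4a7, a bicarbonate importer that raises the pH inside cells (log2 fold change -0.64 ± 0.12, adjusted p 0.0367), Tab1, an activator of the kinase TAK1 (-0.70 ± 0.12, adjusted p 0.0254), Acad10, an acyl-CoA dehydrogenase (-0.72 ± 0.14, adjusted p 0.0362), and Pspc1, a paraspeckle protein (-0.71 ± 0.14, adjusted p 0.0415).

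The 12 genes that rose included cytokines and a hormone. Fgf23, which encodes the hormone of bone cells that makes the kidney excrete phosphate, had the largest rise. It was at 0.309, 0.354, 0.156, 0.0902 and 0.11 CPM with ICB and 4.56, 2.19, 3.58, 4.95 and 40.2 with 5-FU+ICB. Every ICB tumor was at 12 counts or fewer and every 5-FU+ICB tumor at 74 or more, and replicate 5 was far above its group (log2 fold change 5.72 ± 0.90, adjusted p 0.0161, 4.19 without replicate 5). Csf3, which encodes granulocyte colony-stimulating factor, rose from 0.103, 0.354, 0.156, 0.0902 and 0.183 CPM to 2.08, 0.621, 0.402, 2.67 and 2.88 CPM, a log2 fold change of 3.24 ± 0.64 (adjusted p 0.0415). ICB tumors had 3 to 12 counts of it, at or close to the floor. Reg3g, a secreted antibacterial lectin, was at 0.137, 0.471, 0.467, 0.0301 and 0.733 CPM with ICB and 4.45, 3.07, 2.37, 3.37 and 3.14 with 5-FU+ICB. The 5-FU+ICB tumors were alike and all above the ICB tumors (log2 fold change 3.15 ± 0.54, adjusted p 0.0215).

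Il33, an alarmin that stromal and epithelial cells release when damaged, was at 46.1, 53.5, 56.8, 33.8 and 46.5 CPM with ICB and 166, 88.1, 78.5, 158 and 201 with 5-FU+ICB. The lowest 5-FU+ICB tumor stood above the highest ICB tumor (log2 fold change 1.55 ± 0.32, adjusted p 0.0496). Chl1, a neural cell adhesion molecule, was at 10.5, 21.6, 17.6, 4.81 and 13.2 CPM with ICB and 55.5, 35.8, 45.0, 56.0 and 40.0 with 5-FU+ICB, also without overlap (log2 fold change 1.78 ± 0.35, adjusted p 0.0415). Eln, which encodes the matrix protein elastin, rose by a log2 fold change of 1.32 ± 0.27 (adjusted p 0.0486), although ICB replicate 3, at 60.3 CPM, came close to the lowest 5-FU+ICB tumor at 62.3. Thbd, the anticoagulant receptor thrombomodulin, rose by 0.87 ± 0.17 (adjusted p 0.0367), and Dio2, the enzyme that activates thyroid hormone, by 1.93 ± 0.35 (adjusted p 0.0272). Slc39a14, a zinc and iron importer that inflammation induces in liver, rose by 0.60 ± 0.11 (adjusted p 0.0272). The last 3 were Enox1, a cell-surface NADH oxidase (log2 fold change 1.39 ± 0.23, adjusted p 0.0182), Miga1, a protein of mitochondrial fusion (0.81 ± 0.16, adjusted p 0.0394), and the long non-coding RNA Gm15408 (1.47 ± 0.28, adjusted p 0.0362).

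Lists near these in function held 1 DEG. In the list for IL-1, IL-6 and TNF signaling, 0 of 27 genes were DEGs, 6 were higher and 1 was lower at an unadjusted p under 0.05, against 6.14% and 4.74% of all genes, and the median log2 fold change was 0.04. The count of higher genes without 5-FU+ICB replicate 5 was 5, and without replicate 2 it was 6. Saa3, an acute-phase protein made in tissues, was at 28.1, 57.2, 39.6, 9.53 and 57.2 CPM with ICB and 444, 75.0, 141, 333 and 146 with 5-FU+ICB. All 5-FU+ICB tumors were above all ICB tumors (log2 fold change 2.57 ± 0.70, adjusted p 0.136). The iron-binding acute-phase gene Lcn2 had a log2 fold change of 3.05 ± 0.91 (adjusted p 0.185), 2.07 without 5-FU+ICB replicate 5, and Il6 one of 1.64 ± 0.72 (adjusted p 0.413). The cytokines at the head of the pathway had negative values, Il1b at -0.77 ± 0.56 (adjusted p 0.663) and Tnf at -0.51 ± 0.43 (adjusted p 0.719), with 5-FU+ICB replicate 2 the lowest tumor for both. Of 8 tested bone mineral and phosphate genes, 1 rose (Fgf23) and 2 were higher at that p, or 3 without 5-FU+ICB replicate 5, and the median was 0.14. The mineralization enzyme gene Alpl had a log2 fold change of 3.80 ± 0.90 (adjusted p 0.087) that was 1.49 without 5-FU+ICB replicate 5, which stood at 27.0 CPM against at most 1.93 in the other 4.

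Stromal lists leaned upward without a DEG among their members. All 16 fibroblast and matrix genes had positive log2 fold changes, beside 53.2% of all genes, with a median of 0.64, and 7 were higher at an unadjusted p under 0.05, against 6.14% of all genes. The count was also 7 without 5-FU+ICB replicate 5 (4.13% of all genes) and without replicate 2 (8.66%). All 11 endothelial genes were positive too, with a median of 0.65 and 3 at that p. Without replicate 5 that median was 0.16, with 0 of 11 at that p, and without replicate 2 the count was 7. The tissue around a tumor can come with it. Skeletal muscle genes summed to 23.1, 374, 4449, 5.77 and 69.0 CPM in ICB and 1115, 4.82, 1339.5, 854 and 7018 in 5-FU+ICB tumors, so that both groups held tumors with and without muscle RNA. Keratinocyte genes summed to 538 CPM in ICB replicate 2 and to 1.54 to 31.4 in the other 9 tumors. The part of these tissues in the results was not tested.

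B and plasma cell genes were higher in 5-FU+ICB tumors by the model, but this rested on 1 tumor. Of 14 such genes, 0 were DEGs, 13 were higher at an unadjusted p under 0.05 (6.14% of all genes), and the median log2 fold change was 3.74. Without 5-FU+ICB replicate 5 the median was 0.76 and the count 2 (4.13% of all genes). Ms4a1, which encodes CD20, was at 1.34, 0.943, 5.25, 0.271 and 0.954 CPM in ICB and 5.03, 0.709, 1.29, 6.33 and 220.2 in 5-FU+ICB tumors, and the summed level of the list was 276, 39.3, 125, 181 and 5073 CPM in the latter. Replicate 5 was also the only 5-FU+ICB tumor with more than 2 CPM of the epithelial keratin genes Krt19 and Krt8, at 49.5 and 33.8 CPM. Cr2, a complement receptor of B cells and follicular dendritic cells, was at 61.7 CPM there and at most at 0.932 in the other 9 tumors. What tissue that tumor held was not tested.

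**Figure D4:**
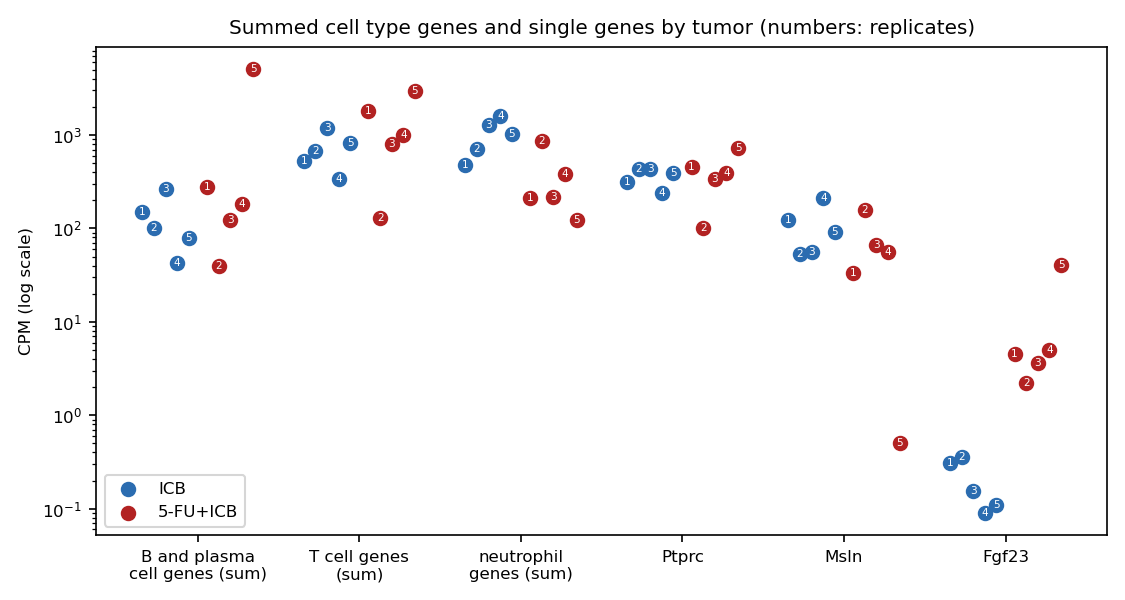
Summed CPM of B and plasma cell, T cell and neutrophil genes and CPM of Ptprc, Msln and Fgf23 on a log scale, for each ICB and 5-FU+ICB tumor, with the replicate number in each point. In 5-FU+ICB replicate 5, B and plasma cell genes summed to 5073 CPM and Msln was at 0.506 CPM, while 5-FU+ICB replicate 2 had the lowest T cell sum, at 128 CPM.

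Tyms, which encodes thymidylate synthase, the drug's main target, was at 43.2, 24.6, 31.0, 53.7 and 39.4 CPM with ICB and 41.6, 69.2, 51.5, 37.9 and 43.5 with 5-FU+ICB. The ranges overlapped (log2 fold change 0.35 ± 0.23, adjusted p 0.624). Of 18 genes of fluoropyrimidine metabolism and targets 0 were DEGs, with 2 higher and 2 lower at an unadjusted p under 0.05, beside 6.14% and 4.74% of all genes. Abcc5, a pump that exports the drug's nucleotides, had a log2 fold change of -0.86 ± 0.20 (adjusted p 0.0831), and Dpyd, the enzyme that breaks 5-FU down, one of 1.84 ± 0.81 (adjusted p 0.417), 1.16 without 5-FU+ICB replicate 5. Of 20 targets of p53, 0 were DEGs and 1 was lower at that p, with a median of 0.17, or -0.09 with 3 lower without 5-FU+ICB replicate 2. Cdkn1a, the p53-induced brake of the cell cycle, was at 116 to 167 CPM with ICB and 126 to 178 with 5-FU+ICB (log2 fold change 0.00 ± 0.14, adjusted p 0.996), and Mdm2 had one of -0.06 ± 0.17 (adjusted p 0.93).

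Of 22 cell cycle and replication genes, 21 had positive log2 fold changes (53.2% of all genes), 1 was higher at an unadjusted p under 0.05 (6.14% of all genes), and the median was 0.25, which became 0.01 without 5-FU+ICB replicate 2. Mki67 was at 179.5 to 472 CPM with ICB and 121 to 637 with 5-FU+ICB. Targets of the integrated stress response had a median of -0.42 over 14 genes and 4 lower at that p, against 4.74% of all genes, or 8 without 5-FU+ICB replicate 2, where 5.49% of all genes were lower. Among the 4 was the pseudokinase gene Trib3 (log2 fold change -1.28 ± 0.39, adjusted p 0.19). In the 20 tested genes of PPAR, PGC-1 and fatty acid oxidation the median was -0.12, with 2 higher and 2 lower. Of these, Ppargc1b, a coactivator of mitochondrial genes, ranged over 6.79 to 10.3 CPM in ICB and 3.50 to 5.37 in 5-FU+ICB tumors (log2 fold change -0.93 ± 0.27, adjusted p 0.162). The lipid droplet gene Plin2 had 144 to 272 and 84.1 to 132 CPM (log2 fold change -0.79 ± 0.21, adjusted p 0.118). The groups did not overlap for either gene. The 2 higher members were Angptl4 (log2 fold change 0.41 ± 0.19, adjusted p 0.44) and Fabp4 (1.30 ± 0.61, adjusted p 0.451), both with overlapping groups.

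**Figure D5:**
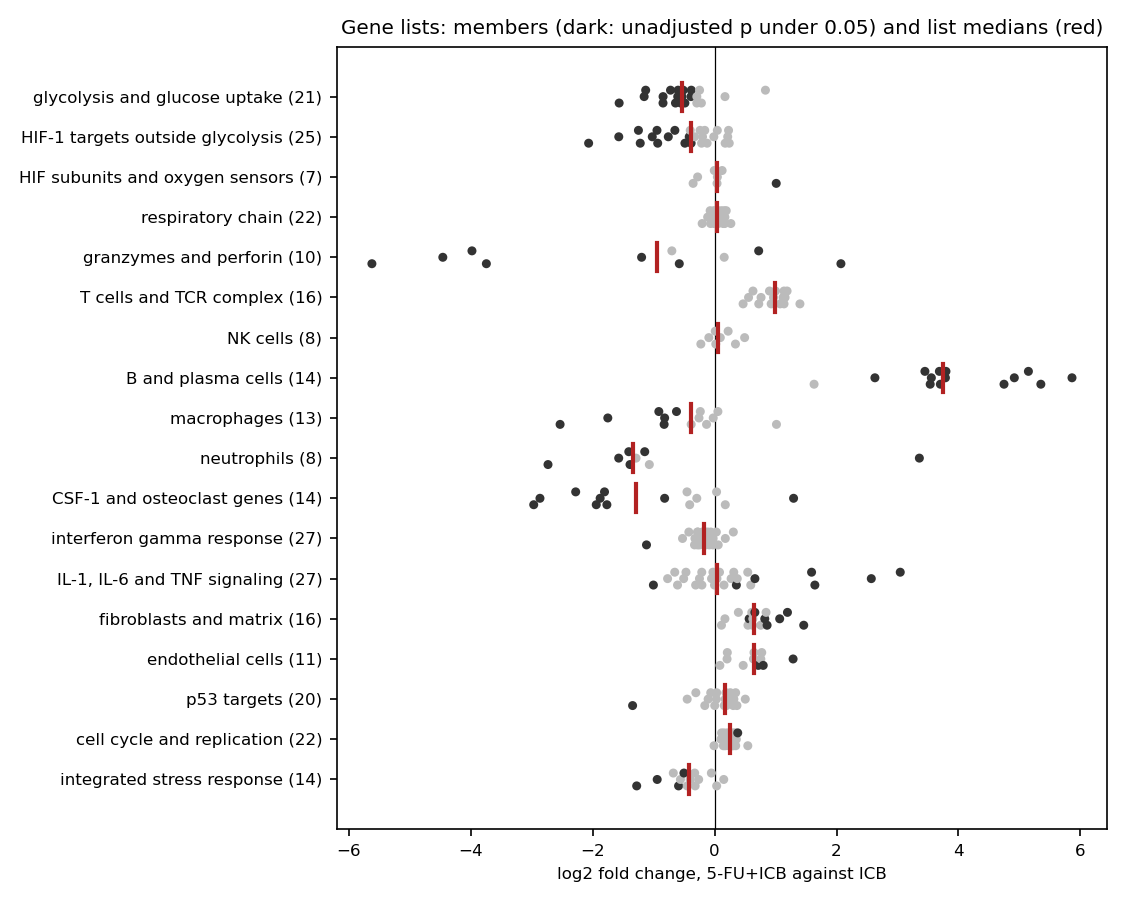
Log2 fold change between 5-FU+ICB and ICB tumors of each tested gene in 18 lists, with the number of genes in brackets. Dark points have an unadjusted p under 0.05 and red lines are list medians. The medians of glycolysis (-0.53) and HIF-1 targets (-0.38) lie below that of all genes (0.02), and that of B and plasma cells (3.74) rests on 5-FU+ICB replicate 5.

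Genes induced by interferon gamma, which ICB is known to raise through T cells, were almost level with and without 5-FU. Of 27, 0 were DEGs, 23 had negative log2 fold changes, and the median was -0.17, with 1 lower at an unadjusted p under 0.05, beside 4.74% of all genes, of which 53.2% were positive. The median was -0.06 without 5-FU+ICB replicate 2, with 0 lower. Ifng itself was at 12.5, 16.9, 14.3, 8.21 and 13.6 CPM with ICB and 11.9, 4.14, 8.77, 8.16 and 12.5 with 5-FU+ICB. The lowest tumor was 5-FU+ICB replicate 2 (log2 fold change -0.53 ± 0.41, adjusted p 0.691). Cxcl9, a chemokine that draws T cells, had a log2 fold change of 0.31 ± 0.49 (adjusted p 0.868).

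To see whether the same genes differed when 5-FU was given without ICB, the 5-FU tumors were set against the PBS tumors, which are other animals. There 4111 genes were DEGs, or 23.0% of those tested. Of the 41 DEGs, 38 had the same sign in that comparison and 28 were DEGs there with the same sign, while 0 were DEGs with the opposite sign. Over all genes tested, 56.9% had the same sign. Without ICB, Car9 fell with a log2 fold change of -2.78 (adjusted p 3.60e-04), Pdk1 with -2.02 (adjusted p 1.38e-04), Pfkl with -0.89 (adjusted p 9.82e-04) and Atp6v0d2 with -2.59 (adjusted p 1.56e-04). Fgf23 rose by 4.00 (adjusted p 0.00792), Il33 by 1.75 (adjusted p 0.00444) and Reg3g by 2.48 (adjusted p 0.00777). Gzmg fell with -4.37 (adjusted p 0.0174). It was at 0.412, 13.1, 2.97 and 0.347 CPM in PBS tumors and 0.323, 0.106, 0.133, 0.381 and 0 in 5-FU tumors. All of these tumors lay under the lowest ICB tumor. The 5-FU values were near or under the floor, and the PBS and 5-FU ranges overlapped. The other 3 DEGs had the opposite sign without passing the threshold there, Fcrl6 at 0.83, Ctsg at 0.46 and the near-absent Gm44040. For the HIF-1 targets outside glycolysis the median log2 fold change without ICB was -0.68, for glycolysis -0.74, for osteoclast genes -1.53, and for all genes -0.01. Several lists had medians of opposite sign in the 2 comparisons. For example, without ICB it was 1.59 for interferon gamma genes (-0.17 with ICB), 1.14 for macrophage genes (-0.38 with ICB), 0.69 for neutrophil genes (-1.34 with ICB), -0.64 for the respiratory chain (0.05 with ICB) and -0.53 for the cell cycle (0.25 with ICB). The summed level of the neutrophil list went against its median of 0.69. It was 498 to 787 CPM in PBS tumors and 218 to 320 in 5-FU tumors. The respiratory chain median with ICB was -0.05 without 5-FU+ICB replicate 5, and the cell cycle median was 0.01 without replicate 2. The differences between medians of the 2 comparisons were not tested.

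Whether the drug's effect differed with and without ICB was tested by the interaction term of the same edgeR fit. It called 16 genes (0.0894% of those tested), 14 lower and 2 higher, and 0 of the 41 DEGs were among them. Of the 41, 12 had an unadjusted interaction p under 0.05, beside 23.9% of all genes. Among the 16 were 8 guanylate-binding protein genes of the interferon response, Cd274, which encodes PD-L1, and Nos2. Gbp4 and Cd274 were chosen after their values were seen. In tumors without ICB, Gbp4 was at 47.0, 63.9, 58.4 and 57.3 CPM with PBS and 189.8, 261, 552, 107 and 386 with 5-FU, while with ICB it was at 879, 970.0, 721, 979 and 814 CPM and with 5-FU+ICB at 759, 669, 815, 827 and 522. The drug's log2 fold change was thus 2.40 without ICB and -0.28 with it, an interaction of -2.68 (adjusted p 0.0472). Cd274 went from 11.7 ± 1.17 to 48.5 ± 24.6 CPM (mean ± SD over 4 and 5 tumors) without ICB, and from 187 ± 45.9 to 125 ± 18.4 CPM (5 tumors each) with it. Its interaction was -2.62 (adjusted p 0.0472), and that of Nos2 was -4.36 (adjusted p 0.0484). The interaction calls were unstable, with 0 to 969 DEGs when 1 tumor of these 2 groups was left out, 969 of them without 5-FU+ICB replicate 4, and 0 without any one of ICB replicates 1, 2 and 4 or 5-FU+ICB replicates 1, 2, 3 and 5.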

How the data were processed

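RNA of whole tumors was sequenced by the authors as 100-base single-end reads. They made the FASTQ files with bcl2fastq 2.20.0.422, aligned them to the GRCm38/mm10 transcriptome with kallisto 0.46.0, versions as in the submitters' processing notes, and deposited estimated counts per gene summed with tximport. Of the values, 23.4% were not whole, and they were rounded. The deposited expected counts were used as given, except for 26 rows whose gene names had become dates, which held 0.181% of the counts. Reads common to near-identical genes were assigned by an estimate, which can move counts between paralogs. Depth in the 10 tumors was 25636834 to 33950805 counts, and floors cover counting error only.

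The counts of 19 tumors (4 PBS, 5 ICB, 5 5-FU, 5 5-FU+ICB) were fitted in R 4.3.3 with edgeR 4.0.16, after filterByExpr and TMM scaling, in a quasi-likelihood model of 4 groups, and the contrast 5-FU+ICB minus ICB was tested two-sided with Benjamini-Hochberg adjustment. SE is the absolute log2 fold change divided by the square root of F. Of 55315 gene rows, 19582 had 0 counts in every tumor and 17894 were tested. The fit was tested on simulated data. Each tumor is a different mouse, and neither the labels nor the methods give a batch. The genes, members and 32 gene lists were chosen with earlier results of these data known. Named are all DEGs, the genes defining a list, up to 4 further members of each list with the smallest unadjusted p under 0.05, and the chromosome 14 cluster. Others are said to be chosen after their values were seen. DESeq2 1.42.0, other scalings and filters, a replicate block, robust estimation, a model of 10 tumors and leaving out each tumor were tried. Promoters came from RefSeq on GRCm38.p6 and gene positions from GENCODE M21, in which all 55315 names were found. The columns of the authors' other matrix were not used here, and the groups were taken from the labels. Some named genes are not reported here.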

Additional observations from a re-analysis of the deposited data

Results flagged for a closer look

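Single tumors were searched for in 196 combinations of a named gene and a group of 5, and 21 held a tumor at the edge that stood apart by Dixon's ratio. Chance flags about 1 in 20 such groups. In 11 of the 21 the tumor was 5-FU+ICB replicate 5. It was the lowest of its group for Msln (0.506 CPM, the others at 33.7 to 159), Gzmf (0.405, the others at 5.88 to 13.6), Gzmd (1.01, the others at 9.14 to 21.3), Gzmc (15.8, the others at 53.4 to 64.3), Csf1 (162 CPM, the others at 362 to 479) and Dio2 (1.21, the others at 2.92 to 3.30). It was the highest for Cr2 (61.7 CPM, the others at most at 0.932), Fgf23 (40.2, the others at 2.19 to 4.95), Tnfsf11 (36.9, the others at 6.53 to 9.03), Alpl (27.0, the others at 0.724 to 1.93) and Acad10 (7.94, the others at 5.69 to 5.92).

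5-FU+ICB replicate 2 was the lowest for Aldoc (2.04 CPM, the others at 6.92 to 9.61) and Plin2 (84.1, the others at 118 to 132), replicate 4 the highest for Ero1l (104 CPM, the others at 69.5 to 76.8), and replicate 1 the lowest for Ppargc1b (3.50, the others at 4.76 to 5.37). Among ICB tumors, replicate 3 was the highest for Eln (60.3 CPM, the others at 24.2 to 31.5) and Thbd (23.5, the others at 18.5 to 19.3) and the lowest for Gm44040 (0.0778, or 2 counts, the others at 0.549 to 1.00). ICB replicate 2 was the highest for Il6 (2.89 CPM, the others at 0.467 to 0.755) and S100a9 (14.8, the others at 2.64 to 4.12), and replicate 1 the lowest for Ppargc1b (6.79, the others at 9.17 to 10.3).

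Among the genes described in the report, the interaction term of edgeR called Nos2 (log2 difference -4.36, adjusted p 0.0484), Gbp4 (-2.68, adjusted p 0.0472) and Cd274 (-2.62, adjusted p 0.0472). The interaction calls were unstable when single tumors were left out, as given above. Gbp4 and Cd274 were chosen after their values were seen. Without ICB the log2 fold changes of these 3 genes with 5-FU were 2.61, 2.40 and 2.05, and with ICB -1.75, -0.28 and -0.58. The 2 interaction calls of positive sign, Nsdhl (1.48) and Pmvk (1.19), have their values in the closing paragraph.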

How the results depend on the processing

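The 41 fold changes kept their sign in all 808 values under alternatives, and 432 of these were also past the threshold, while 376 were not. The number of DEGs was 37 with DESeq2's size factors, 47 without scaling, 39 with robust estimation and 41 without a fold threshold. It was 328 with DESeq2's Wald test (173 higher and 155 lower, against 12 and 29 with edgeR), 17 with no low count filter, 23 with at least 10 counts in every tumor and 0 with only the 10 tumors of both groups. Leaving out each tumor gave 1 to 84 DEGs, the lowest without ICB replicate 4 and the highest without 5-FU+ICB replicate 4. Leaving out 5-FU+ICB replicates 2 and 5 together, chosen after seeing the data, gave 4. The interaction gave 16 genes, 1539 with DESeq2, 48 with at least 10 counts in every tumor, 4 with robust estimation, 0 to 969 when a tumor was left out and 0 without both replicates 2 and 5. Of 2970 values of the other 150 named genes, none of them DEGs, 35 passed the threshold and 57, in 23 genes, changed sign. Of 640 medians of lists, 20 in 10 lists changed sign, those of HIF subunits, the respiratory chain, NK cells, macrophages, IL-1, IL-6 and TNF signaling, immediate-early genes, bone genes, p53 targets, muscle and keratinocytes. The cause of these shifts was not tested. With the replicate number as a block, 8 genes and 0 interactions were called. The numbers do not pair the tumors, since the correlation of same-numbered deviations ran from -0.47 to 0.02 and 0 of 5 were over 0.1, and 0 of 5 tumors correlated best with its own number. Genes near 3 counts, such as Gm44040 and Csf3 in one of the groups, are limited by depth.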

Other observations

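Of the immune lists not described above, T cell checkpoint and regulatory T cell genes had 1 of 15 higher at an unadjusted p under 0.05 and a median log2 fold change of 0.54. These were 6 of 15 and 0.79 without 5-FU+ICB replicate 2. Over all genes 6.14% were higher and 4.74% lower at that p, with 4.13% and 4.33% without replicate 5 and 8.66% and 5.49% without replicate 2. Dendritic cell genes had 1 of 11 higher and 1 lower, with a median of 0.30 that was 0.01 without replicate 5, with 0 higher, and 0.51 without replicate 2, with 3 higher. Monocyte genes had a median of 0.41, which was 0.15 without replicate 5 and 0.23 without replicate 2. Genes of mast cells and basophils had one of 0.39. Immediate-early genes, which respond within minutes to stimulation or handling, had one of 0.14, which was 0.31 and 0.31 without replicates 5 and 2. None of these lists held a DEG. Of tissues around a tumor, adipocyte genes had a median of 1.44, or 0.94 without replicate 5, and erythroid genes one of -1.68, or -2.97 without replicate 5 with 4 of 5 lower, also without a DEG.

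Of the 16 genes called by the interaction, the 2 with a positive value encode enzymes of cholesterol synthesis, and they were chosen after their values were seen. Nsdhl, a sterol dehydrogenase, had a log2 fold change with 5-FU of -1.80 without ICB (adjusted p 1.44e-04) and of -0.32 with ICB (adjusted p 0.543), a difference of 1.48 ± 0.26 (SE, adjusted p 0.0484). Pmvk, phosphomevalonate kinase, had -1.45 (adjusted p 1.44e-04) and -0.26 (adjusted p 0.552), a difference of 1.19 ± 0.22 (adjusted p 0.0484). The interaction called 0 genes in 7 of the 10 fits that left out a tumor.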
